A study of Mus musculus with 4 samples.

Results

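The genes described here encode the enzymes of glycolysis and gluconeogenesis, the enzymes that set their balance, and the carriers that move glucose across membranes. They are a list of 37 gene symbols out of 38924 genes in the count tables, matched by name, and all 37 were found. The list was chosen with earlier results of these data known. RNA of kidney pieces from female CB-17 SCID mice, on a Balb/c background, was sequenced in 4 libraries. The 2 control libraries came from mice given saline and the 2 treated libraries from mice given immune complexes of IgG with galactose-deficient IgA1, a form that autoantibodies bind in IgA nephropathy. Injections into the tail vein were given 3 times within 7 days, every other day, and kidneys were taken one day after the last. All 4 libraries share the SCID background, which lacks functional B and T cells, and no age of the mice is stated in the labels. The labels do not say that each library came from its own mouse, so the p-values below measure the spread between these samples, which may be technical.

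Glycolysis turns glucose into pyruvate in the cytosol, and lactate dehydrogenase interconverts pyruvate and lactate. Gluconeogenesis runs the path backwards through its own enzymes for the irreversible steps, and the kidney cortex is one of the few tissues that releases glucose made this way. The proximal tubule takes glucose back from the filtrate by sodium-coupled uptake and makes new glucose, while more distal segments and the medulla rely more on glycolysis.

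Total gene reads came to 19675879 and 20950134 with saline, against 22791960 and 21681408 with immune complexes, of which the 37 genes took 1.31% to 1.42%. Kidney identity was clear in every library: markers of the proximal tubule summed to 6672 to 7208 CPM, which are read counts scaled to the same total in every library after TMM correction. The 2 immune complex libraries lay further apart than the 2 saline libraries, with a median absolute log2 difference over 16334 tested genes of 0.32 against 0.16. White fat markers summed to 55.5 and 346.9 CPM in saline 1 and 2 and to 1018 and 859.5 CPM in immune complex 1 and 2, and brown fat markers to 4.58, 56.1, 151.6 and 14.1 CPM. Principal cell markers summed to 1995, 731.4, 705.7 and 448.6 CPM. In bulk tissue, fewer cells of a type and less RNA per cell cannot be told apart.

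Levels were compared between genes per kilobase of exon, as the RPKM values that the authors deposited. Pck1, the cytosolic PEP carboxykinase that commits carbon to glucose synthesis, was the highest member with a mean of 1290.0 RPKM over the 4 libraries, at rank 27 of 38924 genes. Ldhb, the lactate dehydrogenase subunit of oxidative tissue, followed at 762.5 RPKM, then Fbp1, the fructose bisphosphatase of liver and kidney, at 631.8 RPKM. Khk, which phosphorylates fructose, stood at 317.8 RPKM. The glycolytic enzymes Aldoa, Tpi1, Pgk1 and Pgam1 stood at 303.0, 278.0, 271.2 and 244.8 RPKM. G6pc, whose enzyme releases free glucose in the last step of gluconeogenesis, stood at 221.2 RPKM and the glucose cotransporter Slc5a2 at 133.1 RPKM. In all, 12 members stood at 100 RPKM or more, 13 between 10 and 100, 9 between 1 and 10, and 3 under 1 (Pfkfb1, Eno2 and Hk3). Hk3, the hexokinase of myeloid cells, had 11, 3, 10 and 12 reads in saline 1, saline 2, immune complex 1 and immune complex 2.

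Gapdh stood far below its neighbours in the pathway, at 1.20 RPKM, with 84, 89, 130 and 74 reads in the 4 libraries. This glyceraldehyde phosphate dehydrogenase gene is often used as a constant reference. Its coding sequence has 160 annotated near-identical copies elsewhere in the mouse genome, of which 153 are pseudogenes, and 94.2% of its 50-base windows occur unchanged in transcripts of other genes. The 144 copies listed in the count tables held 5008, 5266, 5697 and 4481 reads in saline 1, saline 2, immune complex 1 and immune complex 2, many more than the gene itself. The values listed for Gapdh are therefore uncertain as a measure of its RNA.

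Other members also had reads that could not be placed uniquely. Pgk1, Pgam1, Eno1 and Slc2a1 had under 50% of reads at 1 location, against 78.8% for Gapdh. Pkm, Gpi1, Slc2a2, Slc5a2, Tpi1 and Ldha also lay below Gapdh, at 61.4% to 77.3%. Of the 37 genes, 11 had at least 1 annotated copy with 90% identity over 50% or more of the coding sequence. Reads placed at 1 location made up 5.60% of the reads of Pgk1, 2.99% of those of Pgam1, 24.6% of those of Eno1 and 46.7% of those of the glucose transporter Slc2a1. For Eno1 the copy Gm5506, annotated as protein coding, and 1 further copy held 11635, 11432, 13133 and 9621 reads, against 6359, 6972, 7180 and 5430 reads on Eno1. The listed split between Eno1 and its copy is thus uncertain. In contrast, 22 members had no annotated copy and at least 95% of reads at 1 location, among them Hk1, Hk2, Aldoc, Pck1, Fbp1, G6pc, Pcx, Khk and Slc2a4.

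**Figure D1:**
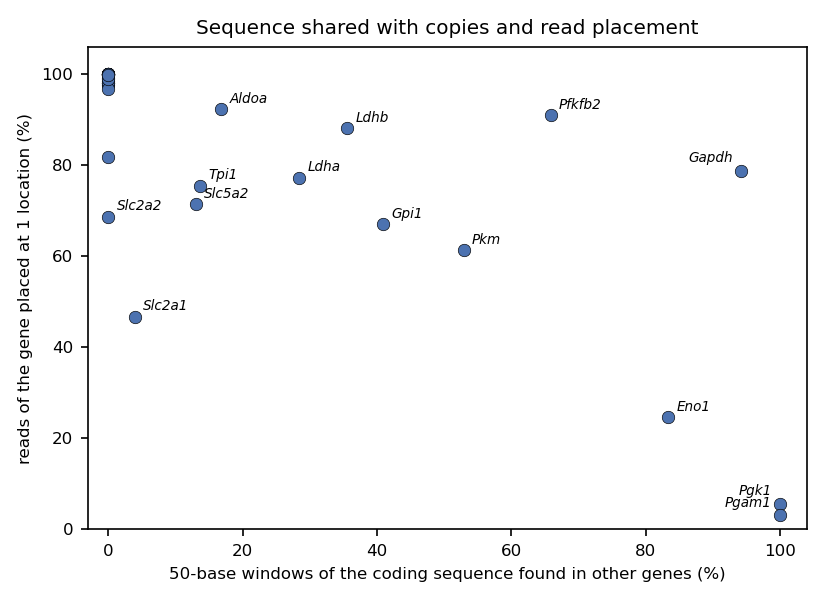
Each point is 1 of the 37 genes, with the percent of 50-base windows of its coding sequence that occur in transcripts of other annotated genes on the x axis and the percent of its reads placed at 1 location on the y axis, over all 4 libraries. Pgk1 and Pgam1 lie at 100% shared windows with 5.60% and 2.99% of reads at 1 location, Gapdh at 94.2% shared windows with 78.8%.

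The comparison of immune complex with saline kidneys asks whether the complexes altered the RNA of glucose metabolism. By edgeR's quasi-likelihood test with Benjamini-Hochberg adjustment over all 16334 genes, 0 of the 37 members were past an adjusted p of 0.05, as were 0.0% of all genes tested, while 3 members and 749 genes had an unadjusted p under 0.05 (4.59% of genes tested, 1.98% higher and 2.6% lower; of members 2 higher and 1 lower). limma-voom called 0 members, and DESeq2 called 1 member, Hk2, where it called 0.557% of genes, 0.227% higher and 0.331% lower. Of the 37 members, 19 had a fold change above 0, against 51.9% of all genes, and 18 below 0, and the members' median log2 fold change was 0.01, against 0.01 over all genes. Groups did not overlap for 10 members (27.0%), 5 in each direction, where 30.0% of all tested genes did not overlap (15.4% higher, 14.6% lower). The even split depends on the scaling: with library totals in place of TMM, 4 members were higher and 10 lower, where 10.9% of all genes were higher and 20.2% lower. With 2 samples against 2, an exact two-sided permutation test of a single value cannot give a p below 0.333. For 32 of 37 members the larger gap between libraries of 1 group exceeded the difference of the group means on the log2 scale, which also held for 81.5% of tested genes.

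**Figure D2:**
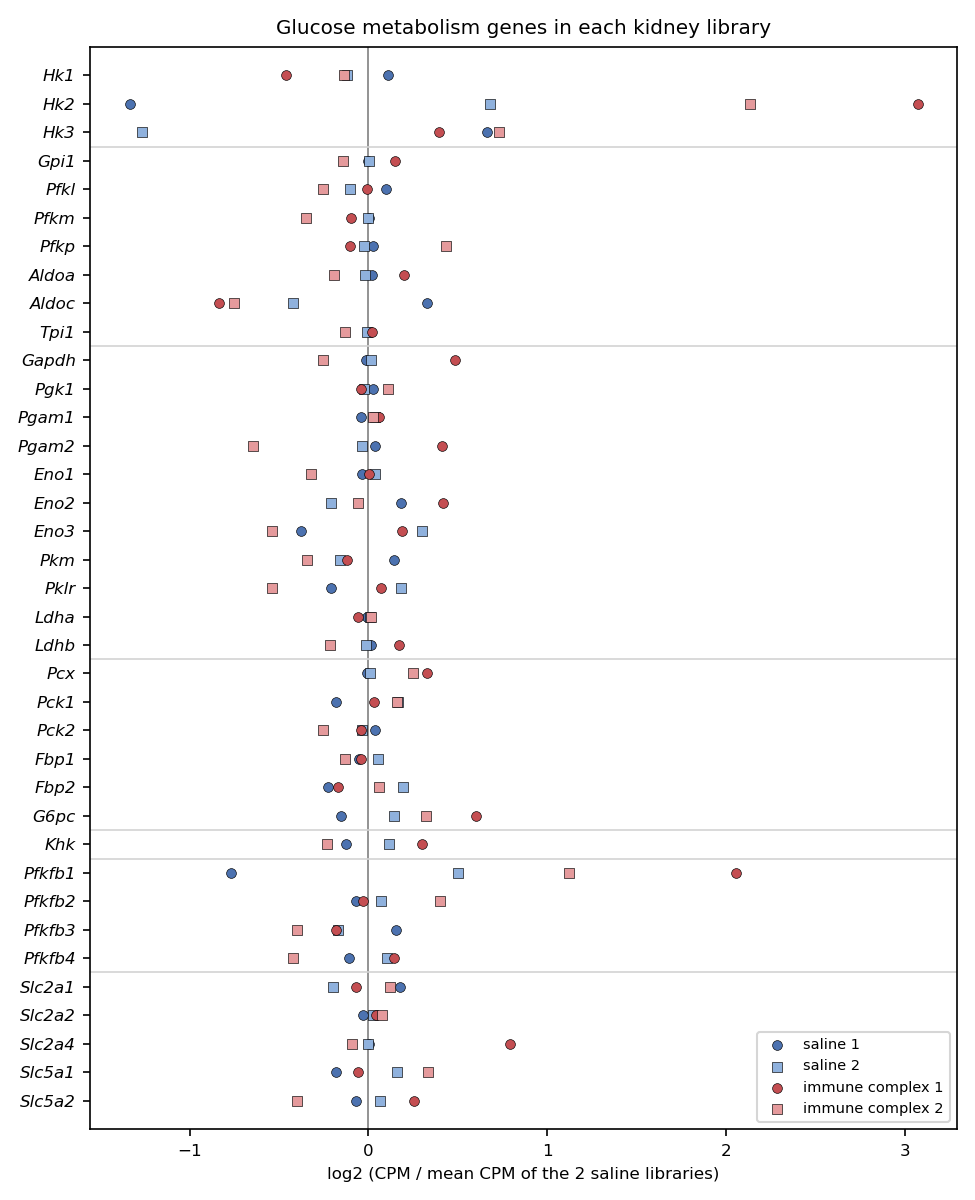
Each row is a gene and each symbol 1 library, placed by the log2 ratio of its CPM to the mean CPM of the 2 saline libraries, with grey lines between the roles (hexokinases, upper glycolysis, lower glycolysis and lactate, gluconeogenesis, fructose entry, PFKFB enzymes, carriers). Most rows are narrow, whereas Hk2 and Pfkfb1 spread widely, from saline 1 at the low end to immune complex 1 at the high end.

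Hexokinases trap glucose in the cell as glucose 6-phosphate. Hk2, the insulin-responsive hexokinase of muscle, heart and fat that can bind mitochondria, stood at 0.935 and 3.78 CPM with saline, against 19.9 and 10.3 CPM with immune complexes, from 19, 80, 443 and 219 reads. Both immune complex libraries lay above both saline libraries, and saline 1 and saline 2 also lay far apart. The log2 fold change was 2.67 ± 0.62 (SE; edgeR unadjusted p = 0.00412, adjusted p = 0.711), higher in 2 of 2 immune complex libraries. The authors' deposited table gives Hk2 a log2 difference of -1.02 with an SE of 0.21, coded as saline over immune complex, and an adjusted p of 0.000927. Of 36 listed members this table calls Hk2 only, where it called 0.538% of genes with an adjusted p. The sizes of its differences cannot be set beside those of the fits here. Adipoq, for example, stands at -0.08 there (saline over immune complex) and at 2.73 in edgeR here (immune complex over saline). In DESeq2 here the log2 fold change was 2.67 ± 0.52 (adjusted p = 0.000291). edgeR called Hk2 when saline replicate 1 was left out (1.99 ± 0.47, adjusted p = 0.0129, where 0.276% of genes were called, 0.129% higher and 0.147% lower) and when saline replicate 2 was left out (3.995 ± 0.56, adjusted p = 6.22e-10, where 1.65% were called, 0.726% higher and 0.92% lower), and not without either immune complex library. In the fits without a saline library, the lone saline sample is assumed to vary like the immune complex pair, so these p-values do not cover the spread between saline 1 and saline 2.

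Hk1, the housekeeping hexokinase of most tissues, stood at 242.2 and 206.2 CPM with saline, against 162.6 and 204.1 CPM with immune complexes. The groups did not overlap, but saline 2 and immune complex 2 were almost level. Its log2 fold change was -0.29 ± 0.20 (edgeR adjusted p = 1.0), and between -0.46 and -0.13 with single libraries left out. Per kilobase of exon Hk1 remained the main hexokinase: Hk2 made up 0.556% and 2.41% of hexokinase RPKM with saline, against 14.7% and 6.78% with immune complexes. Hk3 differed by 0.57 ± 0.69 on 36 reads in all (edgeR adjusted p = 1.0), and by -0.10 without saline replicate 2. The 7 macrophage markers all had higher means with immune complexes (summed 139.1, 148.8, 165.8 and 210.5 CPM), and their part in the Hk3 values was not tested.

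Hk2 is also expressed by fat cells, and its libraries stood in the same order as the summed white fat markers. That order held for the white fat sum and not for every marker, as Cidec was highest in immune complex 2. The 4 smooth muscle markers also summed in the order of Hk2. They came to 53.0 and 94.8 CPM in saline 1 and 2, and to 119.9 and 97.4 CPM in immune complex 1 and 2. The 7 white fat markers were lowest in saline 1, intermediate in saline 2 and highest in the immune complex libraries, all 7 with groups that did not overlap. Adiponectin (Adipoq) stood at 0.148, 24.9, 87.8 and 78.6 CPM in saline 1, saline 2, immune complex 1 and immune complex 2, and the lipid droplet gene Cidec at 0.541, 32.2, 146.6 and 155.0 CPM. The 4 brown fat markers overlapped between the groups, with Ucp1, the uncoupling protein of brown fat, at 0.0492, 20.6, 54.8 and 3.64 CPM. Of white fat markers, Lep was at 0 reads in saline 1. Of 8 skeletal muscle markers, 5 were under 1 CPM in every library and 4 at 0 in at least 1 library. Their summed level was 4.67 to 11.1 CPM. The parts of fat, muscle and macrophage content in the Hk2 difference were not tested.

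**Figure D3:**
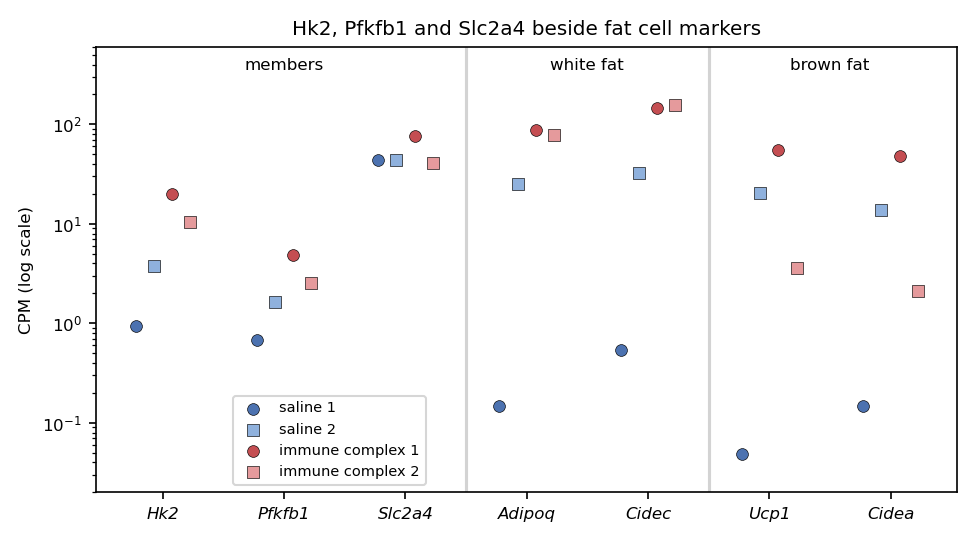
CPM on a log axis of 3 members (Hk2, Pfkfb1, Slc2a4), 2 white fat markers and 2 brown fat markers, with 1 symbol per library. Hk2 and Pfkfb1 are lowest in saline 1 and highest in immune complex 1, the white fat markers are high in both immune complex libraries, and Slc2a4 stands at 41.3 to 44.2 CPM except in immune complex 1.

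The PFKFB enzymes make or remove fructose 2,6-bisphosphate, the main switch that favours glycolysis over gluconeogenesis. Pfkfb1, the form first known from liver and muscle, stood at 0.689 and 1.66 CPM with saline, against 4.88 and 2.55 CPM with immune complexes, from 14, 35, 109 and 54 reads, of which 25.9% lay in introns. Its libraries stood in the same order as those of Hk2, with groups that did not overlap. The log2 fold change was 1.66 ± 0.53 (edgeR unadjusted p = 0.0182, adjusted p = 0.941), and it was called without saline replicate 2 only (2.41 ± 0.68, adjusted p = 0.0251), where saline 1, the lower of the saline pair, stood alone and the spread came from the immune complex pair. The summed white fat and smooth muscle markers stood in the same order too, although not every white fat marker did. The gluconeogenic members G6pc and Pcx, given below, also stood in that order. The parts of fat and muscle content were not tested. Pfkfb3, the highly kinase-active form, made up 57.4% and 49.5% of PFKFB RPKM with saline, against 46.3% and 44.6% with immune complexes, at 48.2, 38.6, 38.2 and 32.9 CPM. Saline 2 and immune complex 1 were nearly level in Pfkfb3. Pfkfb2, a form known from heart, stood between 33.3 and 46.1 CPM and Pfkfb4, first described in testis, between 7.75 and 11.5 CPM, both with overlapping groups.

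The sequences just before the transcription starts are shown for Hk2 and Pfkfb1, the members with the highest log2 fold changes. G6pc, the gluconeogenic member with the lowest unadjusted p, is shown as well. Each is 250 bases credited to RefSeq on GRCm38.p6, read 5′ to 3′ on the gene's strand and ending at the base before the annotated start nearest to the gene start in the count tables, 0, 14 and 155 bases away for Hk2, Pfkfb1 and G6pc. Capitals mark ACGTG, the core of the hypoxia response element, on either strand, and no capitals appear for CACGTG (E-box), TGACGTCA (cyclic AMP response element), GTAAACA (forkhead site) or the PPAR direct repeat, which were also searched on both strands and of which the E-box contains ACGTG.
Hk2, chr6:82774455-82774704, minus strand: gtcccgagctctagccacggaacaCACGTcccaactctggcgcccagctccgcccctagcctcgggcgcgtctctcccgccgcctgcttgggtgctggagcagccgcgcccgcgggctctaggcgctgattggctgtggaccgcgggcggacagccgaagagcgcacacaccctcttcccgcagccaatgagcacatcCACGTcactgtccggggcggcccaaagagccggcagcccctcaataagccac
Pfkfb1, chrX:150587993-150588242, plus strand: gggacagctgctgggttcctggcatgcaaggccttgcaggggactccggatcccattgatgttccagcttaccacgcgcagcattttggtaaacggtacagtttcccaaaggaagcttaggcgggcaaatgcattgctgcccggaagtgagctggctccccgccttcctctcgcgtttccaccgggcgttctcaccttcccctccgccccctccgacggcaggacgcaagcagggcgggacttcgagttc
G6pc, chr11:101367466-101367715, plus strand: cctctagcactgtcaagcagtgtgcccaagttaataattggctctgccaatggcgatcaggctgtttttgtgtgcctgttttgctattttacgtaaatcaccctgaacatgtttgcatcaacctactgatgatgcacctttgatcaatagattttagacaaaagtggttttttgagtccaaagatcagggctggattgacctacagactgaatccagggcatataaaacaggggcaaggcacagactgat

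Hk2 held 2 matches of ACGTG and the Pfkfb1 and G6pc windows none. Slc2a4 and Slc5a2 were not matched. Of 35 members with such a window, taken as 1 window each, 12 held ACGTG and 7 held CACGTG. These letters occurred in 16.6% and 6.02% of all 32851 windows of the same length. Those windows include every start of a gene, so the shares are not of like units. TGACGTCA was found in 1 member window, that of Ldha, and in 1.55% of all windows. GTAAACA and the PPAR direct repeat were found in 0 member windows and in 3.17% and 0.033% of all windows. The windows of Ldha and Pfkfb2 lay 4329 and 13205 bases from the gene starts in the count tables. A match is a description of letters, and these data do not measure binding. The Hk2 gene spans chr6:82725025-82774454, Pfkfb1 chrX:150588229-150643878 and G6pc chr11:101367561-101377903 on GRCm38, as listed in the count tables.

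In upper glycolysis, Aldoc, the aldolase best known from brain, stood at 40.6 and 24.2 CPM with saline, against 18.1 and 19.2 CPM with immune complexes. The groups did not overlap, and saline 1 stood apart from the other three libraries. The log2 fold change was -0.80 ± 0.27 (edgeR unadjusted p = 0.0229, adjusted p = 0.966), lower in 2 of 2 immune complex libraries. Leaving out saline replicate 1 gave -0.38, and leaving out saline replicate 2 gave -1.13. Principal cell markers were also highest in saline 1, and their part was not tested. Per kilobase of exon Aldoc stood at a mean level of 7.85 RPKM over the 4 libraries, far below Aldoa, the form of muscle and most tissues, at 303.0 RPKM.

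Among the phosphofructokinases, which catalyse the committed step of glycolysis, Pfkl took 46.4% to 49.9% of RPKM, Pfkm 36.9% to 42.3% and Pfkp 10.4% to 16.8%. Pfkm, the muscle form, stood at 66.9 and 66.8 CPM with saline, against 62.4 and 52.5 CPM with immune complexes, without overlap. Pfkl, the liver form, and Pfkp, the platelet form, overlapped, with Pfkp at 51.9 CPM in immune complex 1 and 75.4 CPM in immune complex 2, on either side of the saline values. Gpi1, Aldoa and Tpi1, which interconvert or split sugar phosphates, ranged over 402.1 to 491.8, 728.9 to 954.7 and 570.9 to 635.9 CPM. Immune complex 1 was highest and immune complex 2 lowest in each.

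In lower glycolysis and lactate handling, 0 of 11 members had an unadjusted p under 0.05 in edgeR, where 4.59% of all tested genes did. The groups overlapped for all 11, where 30.0% of all tested genes did not overlap. Of the fold changes, 4 were above 0 and 7 below. Pkm, the pyruvate kinase of most tissues, stood at 453.1 and 366.3 CPM with saline, against 376.2 and 322.8 CPM with immune complexes (log2 fold change -0.23 ± 0.20, adjusted p = 1.0), and with single libraries left out it lay between -0.39 and -0.07. It made up 89.0% to 93.0% of pyruvate kinase RPKM, the rest being Pklr, the liver and red cell form, at 42.1, 55.2, 51.1 and 33.5 CPM. The groups overlapped for Pklr. Erythroid markers summed to 534.1, 473.3, 897.5 and 916.0 CPM, without overlap, and their part in the Pklr values was not tested. Gapdh differed by 0.16 ± 0.34 (edgeR adjusted p = 1.0) and by -0.25 without immune complex replicate 1. Ldhb stood at 1229.6 and 1206 CPM with saline, against 1372 and 1050.2 CPM with immune complexes, so that the saline values lay between those of immune complex 1 and 2. Ldha, the subunit of glycolytic tissue, stood between 395.0 and 415.4 CPM. Ldhb thus made up 82.6% to 86.7% of lactate dehydrogenase RPKM. Pgam2, the muscle phosphoglycerate mutase, showed the same kind of split as Ldhb, at 40.04, 38.1, 52.0 and 25.0 CPM. Eno1 ranged from 256.6 to 329.8 CPM, Eno3, the muscle enolase, from 3.31 to 5.91 CPM and Eno2, the neuronal enolase, from 1.28 to 1.97 CPM. Pgk1 and Pgam1 ranged over 584.8 to 649.8 and 431.1 to 461.4 CPM.

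**Figure D4:**
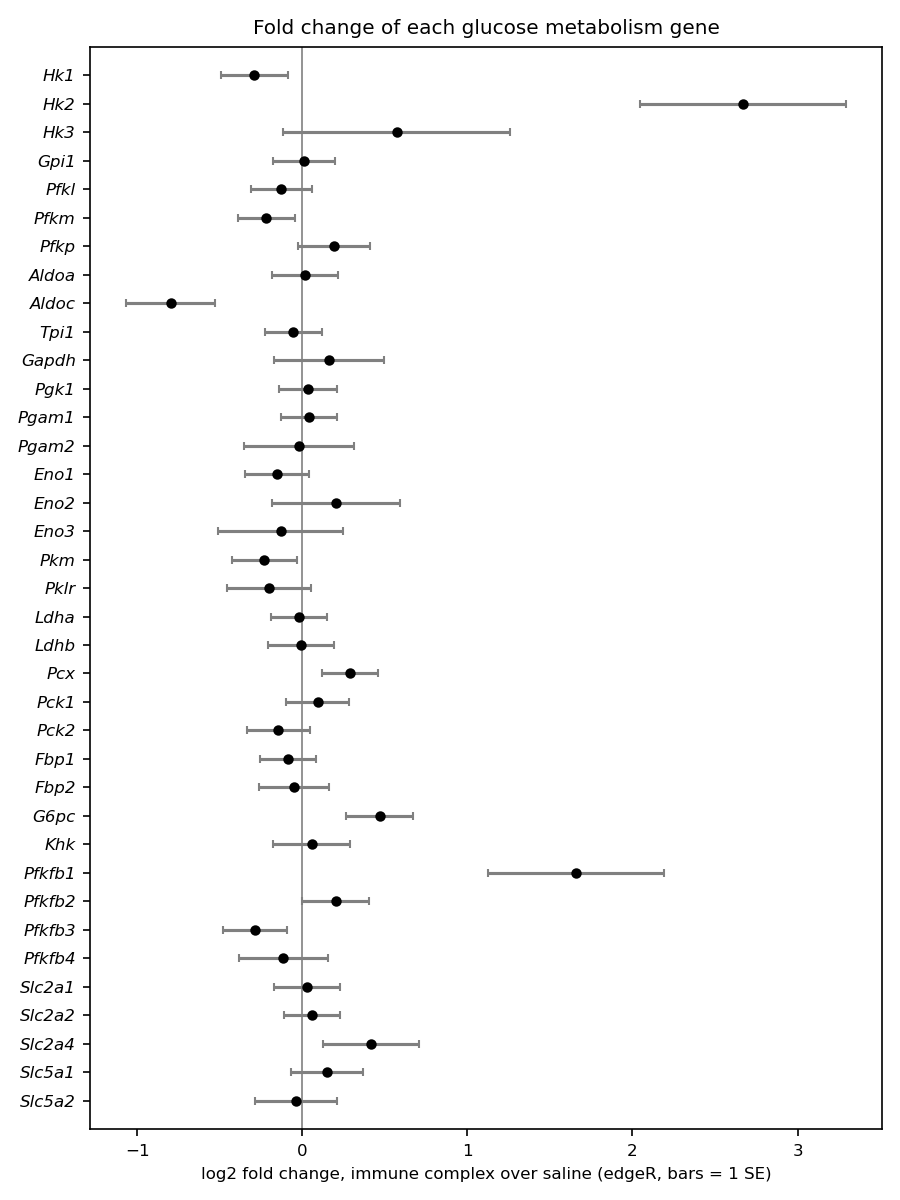
Points are edgeR log2 fold changes of the 37 genes, immune complex over saline, with bars of 1 SE from 2 libraries in each group. Hk2 at 2.67 and Pfkfb1 at 1.66 stand to the right, Aldoc at -0.80 to the left, and none was past an adjusted p of 0.05.

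Gluconeogenesis begins with pyruvate carboxylase and ends with glucose 6-phosphatase. Of its 6 members, 2 (Pcx and G6pc) were higher without overlap of the groups and 1 was lower. Over all tested genes, 15.4% were higher and 14.6% lower without overlap. G6pc stood at 417.3 and 513.0 CPM with saline, against 706.9 and 581.3 CPM with immune complexes. The groups did not overlap, and the log2 fold change was 0.47 ± 0.20 (edgeR unadjusted p = 0.0567, adjusted p = 1.0), higher in 2 of 2 libraries and between 0.32 and 0.61 with single libraries left out. Pcx, which encodes pyruvate carboxylase, stood at 390.3 and 394.7 CPM with saline, against 493.1 and 466.1 CPM with immune complexes. It is 1 of 5 members whose gap between group means exceeded both within-group gaps, together with Hk2, G6pc, Pfkfb1 and Slc2a2. The larger within-group gap exceeded that between means for the other 32 of 37 members and for 81.5% of tested genes. Pyruvate carboxylase also serves fat synthesis in fat cells, and the part of fat content was not tested.

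The other members of the path did not share this order. Pck1 stood at 3792 and 4822 CPM with saline, against 4392 and 4803 CPM with immune complexes, with overlap (log2 fold change 0.09 ± 0.19, edgeR adjusted p = 1.0, and -0.07 without saline replicate 1). Fbp1 stood at 1078 and 1161 CPM against 1087 and 1020.4 CPM (log2 fold change -0.09 ± 0.17, edgeR adjusted p = 1.0). Pck2, the mitochondrial PEP carboxykinase, was 0.338% to 0.521% of PEP carboxykinase RPKM. It stood at 20.02, 19.02, 18.96 and 16.4 CPM, without overlap, although saline 2 and immune complex 1 were nearly level. Fbp2, the muscle form of fructose bisphosphatase, ranged from 24.7 to 33.1 CPM. Khk, where fructose enters, stood at 488.9 and 576.2 CPM with saline, against 654.5 and 453.4 CPM with immune complexes, again with the saline pair between the immune complex pair.

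The carriers differ in where they sit along the nephron. Slc5a2, the cotransporter SGLT2 of the early proximal tubule that recovers most filtered glucose, stood at 385.2 and 423.6 CPM with saline, against 481.6 and 306.7 CPM with immune complexes (log2 fold change -0.04 ± 0.25, edgeR adjusted p = 1.0). Slc5a1, the cotransporter SGLT1 of the late proximal tubule, stood at 83.0 and 105.3 CPM against 90.2 and 118.8 CPM (0.15 ± 0.22, edgeR adjusted p = 1.0). The immune complex libraries thus split in opposite ways for the pair, and Slc5a2 made up 88.0% of their joint RPKM in immune complex 1 and 78.1% in immune complex 2, with 86.6% and 84.7% in saline. With single libraries left out, Slc5a2 ranged from -0.40 to 0.25 and Slc5a1 from -0.06 to 0.34.

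Some marker lists of tubule segments also differed between these libraries. The 4 markers of the proximal straight tubule summed to 275.5 CPM in immune complex 1 and 634.0 CPM in immune complex 2. Most of that gap lay in Slc7a12 alone, at 69.1 and 372.1 CPM. The 3 distal convoluted tubule markers went the other way, with sums of 747.8 CPM in immune complex 1 and 419.4 CPM in immune complex 2. The 6 proximal tubule markers summed to 7208 and 6672 CPM, with 3 of them higher and 3 lower in immune complex 2. The thick ascending limb markers summed to 7146 CPM in immune complex 1 and 10565 CPM in immune complex 2. In all, 25 of 37 members were lower in immune complex 2 than in immune complex 1, with a median log2 difference of -0.22, where 49.4% of tested genes were higher in immune complex 2 and the median was -0.01. The part of segment content in these differences was not tested.

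Slc2a2, the carrier GLUT2 that lets glucose leave the early proximal tubule, varied little, at 28.5 and 29.6 CPM with saline, against 29.9 and 30.7 CPM with immune complexes (0.06 ± 0.17, edgeR adjusted p = 1.0). Its groups did not overlap, although the difference was small, and with library totals in place of TMM scaling it was -0.0027. Slc2a1, the widely expressed carrier GLUT1, stood at 85.0, 65.4, 71.6 and 81.8 CPM (0.03 ± 0.20, edgeR adjusted p = 1.0), with its direction turned when reads placed at 1 location were used (-0.22) and with library totals (-0.04). Slc2a4, the insulin-responsive carrier GLUT4 of muscle and fat, stood at 44.2 and 43.9 CPM with saline, against 76.4 and 41.3 CPM with immune complexes. Its high value was confined to immune complex 1, the library with the most brown fat RNA, while the white fat markers were high in both immune complex libraries. Fat content as a part of that value was not tested.

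**Figure D5:**
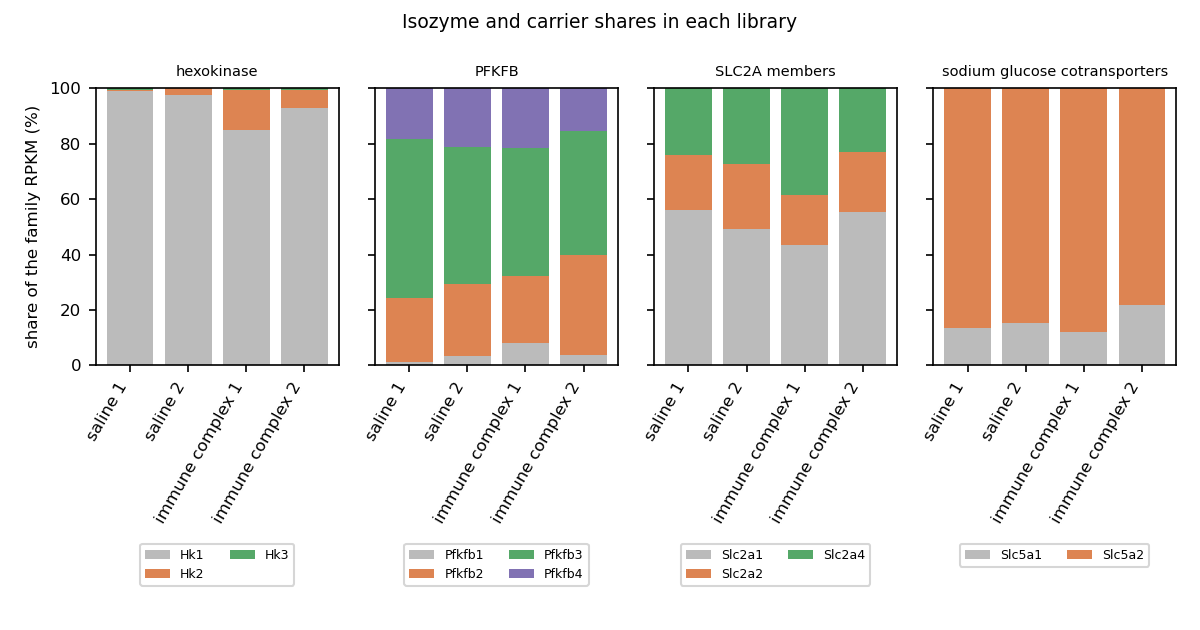
Stacked bars give the percent of the summed RPKM of each family held by each gene, 1 bar per library. Hk2 takes 14.7% and 6.78% of hexokinase RPKM in the immune complex libraries against 0.556% and 2.41% in saline, and Slc2a4 takes 38.4% of the 3 SLC2A carriers in immune complex 1 against 23.1% to 27.4% in the other libraries.

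Around the listed genes, 78 further genes of glucose handling were looked at, of which 76 were tested. None was past an adjusted p of 0.05 in edgeR, where 0.0% of all genes were, and 48 had a fold change above 0 and 28 below, with a median of 0.06. An unadjusted p under 0.05 was reached by 3 in the higher and 2 in the lower direction, where 4.59% of all genes reached it. Glycogen enzymes had 9 of 11 fold changes above 0, with groups not overlapping in the higher direction for 7 of 11, where 15.4% of all genes did so, and a median of 0.23. Gbe1, the branching enzyme, stood at 27.5 and 28.2 CPM with saline, against 36.1 and 43.8 CPM with immune complexes (0.52 ± 0.18, edgeR adjusted p = 0.976). Pygl, the liver-type phosphorylase, stood at 35.1 and 45.9 against 68.7 and 54.0 CPM (0.60 ± 0.22, edgeR adjusted p = 1.0), and Pygb, the brain-type phosphorylase, at 65.8 and 55.1 against 45.4 and 42.4 CPM (-0.46 ± 0.18, edgeR adjusted p = 1.0). Gpt, an alanine aminotransferase that feeds pyruvate from alanine, stood at 21.99 and 25.0 CPM with saline, against 38.4 and 37.0 CPM with immune complexes (0.68 ± 0.18, edgeR adjusted p = 0.805).

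Akr1b3, the aldose reductase that makes the medullary osmolyte sorbitol from glucose, stood at 280.5, 41.3, 14.1 and 53.6 CPM, with overlap between groups. Its log2 fold change of -2.25 ± 0.93 (edgeR adjusted p = 1.0) became -0.29 when saline replicate 1 was left out and -3.06 when saline replicate 2 was, where it was called (adjusted p = 5.21e-12). That fit sets saline 1 alone, the highest of the 4 libraries, against the immune complex pair and holds no spread between saline libraries. On reads placed at 1 location it was -1.35. The remaining lists were pyruvate entry and lactate carriers (10 above 0 and 6 below), pentose phosphate enzymes (6 and 1), further sugar kinases (5 and 3), glucose 6-phosphate release and carbon shuttles (4 and 4), further sugar carriers (4 and 7) and regulators (10 and 5).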

How the data were processed

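Kidney RNA of 2 saline and 2 immune complex samples was sequenced on Illumina libraries, per the labels' protocols. GRCm38, STAR 2.5.2b and DESeq2 are listed, with no roles, in the submitters' processing notes. Neither label nor header states the RNA selection, the read counter, the annotation release or the strand setting. Read counts per gene, in total and by exon and intron, were deposited as raw whole numbers, as were RPKM values by the authors, for which 99.7% of genes could be recomputed from the reads within a relative tolerance of 0.0001. The authors' deposited table of 16128 genes gives log2 fold changes, coded saline over immune complex, and p-values. Lengths are listed in bases.

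Total gene reads were tested in edgeR 4.0.16 (R 4.3.3; filterByExpr, TMM, glmQLFit, glmQLFTest, no block) over 16334 genes, adjusted by Benjamini-Hochberg at 0.05. Standard errors are the fold change over the square root of F. The procedure was checked on simulated counts. Log2 differences between libraries used CPM plus 0.5. Alternatives were exon or unique reads, other scaling and filters, DESeq2 1.42.0, limma-voom (limma 3.58.1), a replicate block and leaving out each library. Copies were found with blastn 2.17.0 in GENCODE M21 transcripts. Gene spans in the tables were identical in GENCODE M21 for 24 of the 37 members and overlapped for all 37. Between replicates the chi-square per degree of freedom was 18.2 (saline) and 61.2 (immune complex), so no library is a copy.

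The members, lists and tests were chosen with earlier results of these data known. Fold changes are given for members with unadjusted p under 0.1 or an absolute log2 fold change of 0.5 or more, for Hk1, Gapdh, Pkm, Fbp1, Pck1, G6pc, Slc2a1, Slc2a2, Slc5a1 and Slc5a2, and for non-members with unadjusted p under 0.05 and at least 1 CPM. The genes Adipoq, Cidec, Ucp1, Lep, Slc7a12 and Gm5506 were named after their values were seen.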

Additional observations from a re-analysis of the deposited data

How the results depend on the processing

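Over the whole table edgeR called 0 genes, as it did with exon reads, DESeq2 size factors, library totals and at least 10 reads in every library. It called 1 with unique reads and 2 with no filter, DESeq2 called 91, and limma-voom called 0. With single libraries left out the count ranged from 0 to 279, in fits where the lone library is assumed to vary like the other group, and for the glucose genes from 0 to 2 (Hk2, and Pfkfb1 without saline replicate 2), against 1 in DESeq2. Members whose groups did not overlap numbered 18 to 32 (48.6% to 86.5%) with a library left out, where 1 sample stands against 2 and 48.6% to 79.6% of all genes did not overlap, and their median log2 fold change ranged from -0.133 to 0.0405. A replicate block called 55 genes and 1 member (Hk2, adjusted p = 0.0323); same-numbered libraries deviated in opposite ways (correlation -0.13), which gives no sign of pairing, and the labels do not state one. The crossed numbering, added after seeing the data, called 160 genes and 1 member. Slc2a1 turned to -0.22 with unique reads and -0.0359 with library totals, and Slc2a2 to -0.0027 with library totals. With single libraries left out Hk3 ranged from -0.10 to 1.79, Gapdh from -0.25 to 0.48, Pck1 from -0.0705 to 0.27, Slc2a1 from -0.16 to 0.23, Slc5a1 from -0.062 to 0.34 and Slc5a2 from -0.40 to 0.25. The cause of these changes was not tested. With unique exon reads the Pkm share was 88.0% (saline) and 88.6% (immune complex), Ldhb 86.4% (saline), Slc2a4 38.8% and 46.8%, and Slc5a2 81.1% (saline); with total gene reads the Pfkfb3 share was 40.1% (immune complex). Library totals gave 12 members above 0 and 25 below, in place of 19 and 18, and 4 higher and 10 lower without overlap, in place of 5 and 5, with a shift of the median of all genes to -0.05. Depth limits Hk3, Pfkfb1 and Eno2, which had the fewest reads over the 4 libraries.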
